A study of Mus musculus with 4 samples.

Results

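The type I interferon gene cluster of the mouse was described here by 10 of its genes, Ifnb1 and the 9 alpha genes Ifna1, Ifna2, Ifna4, Ifna5, Ifna6, Ifna7, Ifna9, Ifna11 and Ifna12. They were chosen by name from 21887 protein-coding genes on chromosomes 1 to 19, X and Y. All 10 were found in the RefSeq table, on chromosome 4 from 88522025 to 88850656 (mm10), a span of 328.6 kb. H3K9me3, a histone mark of silenced chromatin, had been profiled by chromatin immunoprecipitation and sequencing in cultured muscle stem cells, with 1 library per condition. The control culture received ethanol and carried the genotype label Setdb1lox/lox;Pax7GakaCreERT2. The other culture received 4-hydroxytamoxifen to delete Setdb1, an H3K9 methyltransferase gene, and carried the label Setdb1lox/lox;Pax7GakaCreERT3. Cells of both cultures thus had floxed Setdb1 and an inducible Cre recombinase under Pax7, a muscle stem cell gene, and treatment lasted 72 h. No age, sex or number of animals was given in the sources used here.

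Type I interferons are secreted proteins that most cells make once they sense viral or misplaced nucleic acid. Interferon beta and the alpha interferons bind the same receptor, made of Ifnar1 and Ifnar2, which signals through kinases and transcription factors to switch on antiviral genes. Their genes have no introns, arose by tandem duplication and stay nearly silent until interferon regulatory factors (IRFs) and, at Ifnb1, NF-kB bind close upstream. Setdb1 is known for silencing retroelements, whose transcripts can be sensed in this way. The question at this locus was where the silencing mark lay with and without the enzyme.

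The measurements were positions of H3K9me3 peaks, and each list came from 1 library, so differences between the lists have no replicate check and could not be tested. On the main chromosomes there were 105709 control peaks and 113503 peaks in the list labelled as deleted. Sequencing depth is unknown, and a difference in depth cannot be told apart from a difference in the mark. Setdb1 plus 5 kb was covered by peaks at 0.888% (control) and 0% (deleted), and these values do not show if the deletion took place. The 8 markers of muscle stem cells and myoblasts, Pax7 among them, had no peak within 5 kb in either list. Of the blood cell markers, Adgre1, a macrophage receptor gene, was covered at 20.1% and 19.9%, and Ptprc at 0% and 0.753%. Itgax and the markers of other muscle cells, Pdgfra and Pecam1, had none. Peaks of a silencing mark give no level of expression, so the cell type could not be checked further.

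The promoters of the cluster are shown first. No peak of either list reached any of those in the RefSeq promoter table (GRCm38.p6). Of the members, 9 have an entry there (all but Ifna7), which runs from 250 bases before the annotated start to 50 after it. The share of all promoters without a peak was not computed. Peaks covered only 4.90% (control) and 4.91% (deleted) of the main chromosomes, so this absence cannot be called particular to the member promoters. The 3 below were picked for their places in the cluster. Ifnb1 lies at its lower end, and Ifna4 in the group of genes at the upper end. Ifna12 is the member nearest to a peak in both lists. Each sequence reads 5′ to 3′ on the gene's own strand, from base 150 to base 61 before the start. Capitals mark an IRF pair (GAAA, any pair of bases, GAAA again), an NF-kB motif (the run in Ifnb1 from GGG to TCC) or a TATA box (TATAAA).
Ifnb1, minus strand, chr4:88522855-88522944: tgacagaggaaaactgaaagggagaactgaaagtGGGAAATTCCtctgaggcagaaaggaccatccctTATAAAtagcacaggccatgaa
Ifna12, minus strand, chr4:88603437-88603526: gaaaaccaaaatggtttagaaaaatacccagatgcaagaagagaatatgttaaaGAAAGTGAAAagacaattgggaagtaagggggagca
Ifna4, plus strand, chr4:88841666-88841755: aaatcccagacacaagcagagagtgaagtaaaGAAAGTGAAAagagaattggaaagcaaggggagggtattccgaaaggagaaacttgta

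Both strands of the full 300-base windows were searched for the 3 motifs, which do not overlap each other in the printed stretches. The IRF pair was found in 8 of the 9 member promoters, all of them alpha genes, and in 3.44% of 32851 promoters on the main chromosomes. In Ifna12 it lay 96 to 87 bases before the start, and in Ifna4 1 match lay at 118 to 109 and another at 208 to 199. The NF-kB motif was found in Ifnb1 alone among the members, 116 to 107 bases before the start, and in 0.110% of all promoters. TATAAA was present in Ifnb1 and Ifna6 and in 13.6% of all promoters. A match describes the letters and shows no binding. Sites that depart from these letters are missed, and the printed stretch of Ifnb1 holds GAAA copies at another spacing. The absence of an IRF pair there therefore does not show that Ifnb1 lacks an IRF site.

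The alpha promoters are copies of each other, so they are not independent examples of a motif. Local alignment of their 28 pairs gave a median identity of 82.1% over aligned stretches of 107 to 297 bases. The pair Ifna6 and Ifna5 matched at 98.1% over 159 bases, and Ifna5 and Ifna1 at 94.5% over 293. Ifnb1 aligned with the alpha promoters over 29 bases at most. How reads from such near-identical copies were placed is not given in the sources used here, and its part in the peak counts was not tested.

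Peaks lay over none of the 10 gene bodies in either list. Over all protein-coding genes, 20.3% had a control peak over the gene body and 21.4% a deleted-list peak. With 5 kb added on both sides, 1 of the 10 members was met by a control peak, Ifna12, and 2 were met by a deleted-list peak, Ifna12 and Ifna1. Of all protein-coding genes, 29.0% had a control peak in that window and 30.1% a deleted-list peak. The other 8 members had none in either list, like 64.6% of all protein-coding genes. The shares over all genes were not matched for gene length, and the member gene bodies are only 570 to 797 bp long. A longer gene has more room for a peak, so these counts do not show a lack of peaks at the members. When both lists were limited to a −log10 q of 2 or more, which keeps 18.8% of control and 11.5% of deleted-list peaks, no member had a window peak, Ifna12 and Ifna1 included. The members' median window coverage was 0% in both lists, and so was the median over all protein-coding genes.

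Ifna12, an alpha interferon gene at 88602580 to 88603376 on the minus strand, was the member with a peak in both lists. The control peak ran from 88601126 to 88601772, 807 bp from the gene body, and the deleted-list peak from 88601415 to 88602144, 435 bp away. These peaks shared 358 bp and lay past the 3′ end of the gene, at 1.60 kb and 1.23 kb from its annotated start. The Ifna12 window was covered at 5.99% by control peaks and at 6.76% by deleted-list peaks, which differ by 0.77 percentage points. The same peaks were the nearest to Ifna9, the next member along, at 8.74 kb and 9.03 kb. The pseudogene Mrpl48-ps, which lies between Ifna9 and Ifna12, was covered at 5.94% and 6.70% by them.

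Ifna1, the member at the upper end of the cluster (88850087 to 88850656, plus strand), had a peak in the deleted list alone. That peak ran from 88853788 to 88856165, 3.13 kb past the 3′ end of Ifna1, and covered 17.7% of its window against 0% in the control list. Of all protein-coding genes, 6.41% had a window peak in the deleted list only and 2.38% were covered at least 10 points more there. In the control list 5.39% of genes had a window peak that the deleted list lacked, and 2.52% were covered at least 10 points less in the deleted list. None of the 10 members was in either of the latter groups. The shares over all genes were not matched for gene length, and a given peak covers a larger part of a short gene's window. The 2.38% therefore does not show that such a gain is rare among genes as short as Ifna1. The peak beside Ifna1 was 2378 bp wide, wider than 89.6% of its list, with a fold enrichment of 2.57 and a −log10 q of 1.35, lower than most of its list.

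**Figure D1:**
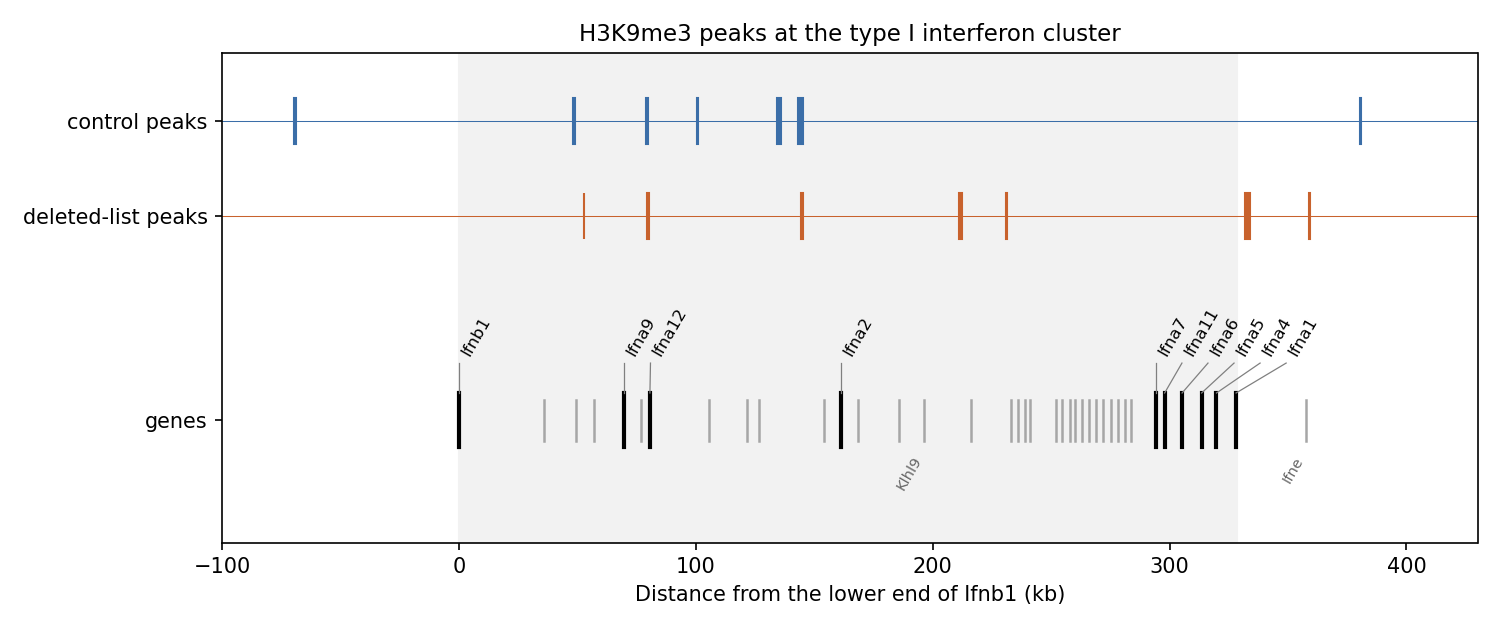
Positions of H3K9me3 peaks in the control and deleted lists (boxes, to scale) and of genes (ticks at the lower end of each gene), as distance in kb from the lower end of Ifnb1. Black ticks are the 10 members, grey ticks the other genes inside the cluster (shaded) and Ifne. The 5 control peaks in the cluster all lie between Ifnb1 and Ifna2, and 2 of the 5 deleted-list peaks lie beyond Ifna2.

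Along the cluster, the distance from a gene body to the nearest peak ran from 0.807 to 85.7 kb for control peaks and from 0.435 to 51.8 kb for deleted-list peaks. Ifnb1, which encodes interferon beta and stands alone at the lower end, was 47.2 kb from the nearest control peak and 51.8 kb from the nearest deleted-list peak. Ifna2 was 16.0 kb and 15.8 kb away, from peaks that overlapped each other. The 4 members of this lower part, with Ifna9 and Ifna12, thus had nearest peaks at like distances in both lists when all peaks were counted.

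The 6 members at the upper end, Ifna7, Ifna11, Ifna6, Ifna5, Ifna4 and Ifna1, differed between the lists, and all 6 shared the same nearest peak in each list. In the control list it lay beyond the cluster from 88902462 to 88902793, and in the deleted list it was the peak beside Ifna1. Ifna7 was 85.7 kb and 37.0 kb from them, Ifna11 81.9 and 33.2 kb, and Ifna6 74.4 and 25.8 kb. Ifna5 was 66.4 and 17.7 kb away, Ifna4 60.002 and 11.3 kb, and Ifna1 51.8 and 3.13 kb. The 6 shorter distances are therefore 1 observation, not 6, and neighbouring windows in this group overlap.

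Over the members, the median distance was 55.9 kb to a control peak and 16.8 kb to a deleted-list peak. The medians over all protein-coding genes were 29.0 and 25.0 kb. A peak was nearer in the deleted list for 8 of the 10 members and nearer in the control list for Ifnb1 and Ifna9. Of all protein-coding genes, 46.2% had a nearer peak in the deleted list and 37.7% in the control list. The 8 are not separate observations, since the 6 from Ifna7 to Ifna1 share 1 nearest peak in each list. Ifna12, at 0.807 and 0.435 kb, and Ifna2, at 16.0 and 15.8 kb, differed little between the lists. The count therefore cannot be weighed against the shares over all genes, and the members' medians also depend on the shared peaks. The fall in the members' median was absent among stronger peaks. When each list was limited to its peaks of median fold or higher, the medians were 55.9 and 56.6 kb. At a −log10 q of 2 or more they were 83.8 and 150.7 kb. Single genes did not all follow the medians. From median fold up, the 6 members from Ifna7 to Ifna1 stayed nearer a deleted-list peak, with Ifna1 at 51.8 and 30.2 kb. Ifnb1, Ifna9 and Ifna12 were then nearer a control peak, with Ifnb1 at 47.25 and 129.6 kb. At the q limit both orders turned, with Ifna1 at 51.8 and 182.7 kb and Ifnb1 at 379.7 and 129.6 kb.

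**Figure D2:**
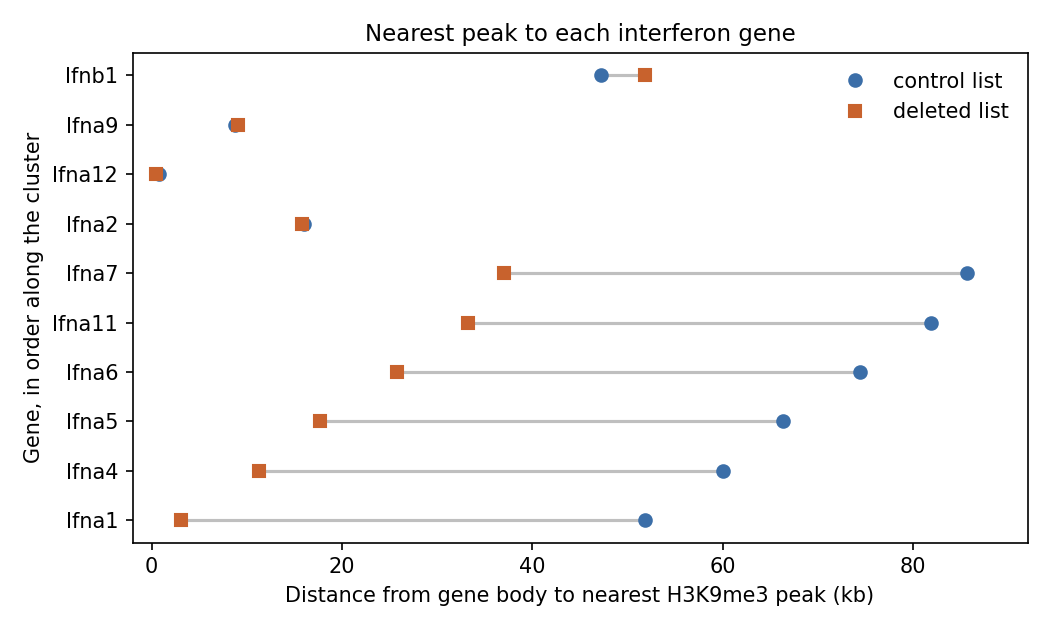
Distance in kb from each of the 10 gene bodies to the nearest peak in the control list (circles) and the deleted list (squares), 1 library each, with genes in chromosome order. Ifnb1, Ifna9, Ifna12 and Ifna2 have distances within 5 kb of each other in the lists, and the 6 genes from Ifna7 to Ifna1 are nearer a peak in the deleted list.

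Inside the cluster each list held 5 peaks, and the control peaks covered 1.63% of its bases. The deleted-list peaks covered 1.15%, a difference of -0.48 points. Only 2 peaks of each list met a peak of the other, and the shared sequence came to 1091 bp. The share of all peaks that meet a peak of the other list was not computed. This count therefore cannot be called particular to the cluster. The pair beside Ifna12 was one of the 2 overlaps. The other lay between the pseudogene Gm13281 and the alpha gene Ifna16, from 88665042 to 88667189 (control) and from 88666457 to 88667387 (deleted). It was the strongest of the cluster in both, with a −log10 q of 1.90 and 2.01 and a fold of 2.76 and 2.98, each within its own list. It lay 9.10 and 8.90 kb from Ifna16, and no other gene was nearer.

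The remaining 3 control peaks fell in the lower part of the cluster. A peak of 700 bp from 88570045 to 88570744 ended 484 bp from Ifna14, another alpha gene, and the nearest deleted-list peak, of 280 bp, was 2.83 kb on the other side of that gene. The smallest control peak, 335 bp, was 4.58 kb from Pramel32, a gene of the Prame-like family. The third, of 1524 bp from 88656197 to 88657720, was 6.83 kb from Gm13281. Their −log10 q lay between 1.37 and 1.48, against a median of 1.60 over all control peaks. By fold, the peak near Ifna14 stood at 2.59, just above the control median of 2.57, and the others at 2.54 and 2.46.

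Of the 3 deleted-list peaks without a control partner, the one near Ifna14 lay in the lower part and 2 lay farther along. A peak of 1510 bp from 88732905 to 88734414 was 10.4 kb from Klhl9, a ubiquitin ligase adaptor gene that interrupts the interferon genes, and 3.90 kb from the noncoding gene Gm13274. The next, of 323 bp, was 1.57 kb from Gm13271, for which RefSeq lists the synonym Ifnz (interferon zeta). Both had a −log10 q below the median of 1.48 of the deleted list, at 1.16 and 1.25. The nearest control peaks were 65.7 and 85.8 kb from them.

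The difference between the lists was not even along the cluster. From Ifnb1 to Ifnab, 169.2 kb with the lower alpha genes, control peaks covered 3.16% and deleted-list peaks 1.15%, with 5 and 3 peaks. The 63.6 kb around Klhl9 stood at 0% and 2.88%, with no control peak and 2 deleted-list peaks. No peak of either list fell in the 53.5 kb from Gm13271 to Gm13288 or in the 34.4 kb from Ifna7 to Ifna1. The control list had no peak over 235.3 kb from 88667190 to 88902461, which holds 28 of the 38 genes inside the cluster, 7 of them members. Of 6811 gaps between control peaks on chromosome 4, 1.32% were as long or longer, and the median gap was 4.89 kb. In the deleted list the longest gap that reached the cluster was 182.2 kb, from 88392471 to 88574631, and it held Ifnb1. Among 7843 gaps of that list on chromosome 4, 1.91% were as long or longer, with a median of 4.17 kb. Each gap was picked as the longest that met the cluster, and long gaps take up more sequence than short ones. These shares by count therefore do not show that such a stretch is rare.

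The other genes of the locus were mixed. Of the 28 further genes inside the cluster, 22 of them protein-coding, 3 had a control peak in their window and 6 a deleted-list peak. The shares of 29.0% and 30.1% are of protein-coding genes only. Among the 22 coding genes here, only Ifna14 and Pramel32 had a control peak, and only Ifna14, Gm13271 and Gm13286 a deleted-list peak. Ifna14 was covered at 6.62% and 2.65%, and Ifna-ps1, an alpha pseudogene, at 0% and 2.40%. Pramel32 stood at 1.99% and 0%, Gm13274 at 0% and 6.73%, and Gm13271 and Gm13286 at 0% and 3.06% each, from the same peak. No window peak was found at Ifna13, Ifna15, Ifna16, Ifnab, Klhl9 or the pseudogenes Gm13281, Gm13282 and Gm13284 in either list. The zeta array from Gm13271 to Gm13288 holds 15 protein-coding genes, and 13 of them share their exact length with another, such as Ifnz, Gm13276, Gm13277 and Gm13278 at 1462 bases. All 15 were 87.7 to 115.9 kb from a control peak and 1.57 to 49.96 kb from a deleted-list peak. Among these, Gm13283, Gm13290, Gm13289, Gm13272, Gm13275, Gm13279, Gm13285, Gm13287 and Gm13288 had no window peak, nor had the 4 genes of 1462 bases.

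The cluster was compared with 500 kb on each side. Coverage below it was 0.461% by control peaks and 0.131% by deleted-list peaks, and above it 0.721% and 0.694%. Both flanks together held 8 control and 6 deleted-list peaks, or 0.591% and 0.413% of their bases. By control peaks the cluster thus stood 1.04 points above its flanks, and by deleted-list peaks 0.74 points above them. That order turned with flanks of 1 Mb, where the cluster was lower by 0.70 and 0.89 points. In the control list it also turned at a −log10 q of 2 or more, to -0.16 points. No control peak of the cluster reached that limit, and the strongest stood just under it at 1.90.

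Coverage of chromosome 4 as a whole was 5.69% and 6.62%, above the cluster in both lists. Segments of the cluster's size gave lower medians than that mean. Of 475 segments of chromosome 4 of the cluster's length, the median was 1.85% for control peaks and 2.03% for deleted-list peaks. Among them, 47.4% lay below the cluster by control peaks and 35.4% by deleted-list peaks. Over 8273 such segments of all main chromosomes, 22.5% fell by as much as the cluster or more. The difference of -0.48 points also turned sign with a small shift of the boundary: over the span of all named interferon genes, which ends at Ifne, it was 0.22 points, since this takes in the deleted-list peak beside Ifna1.

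**Figure D3:**
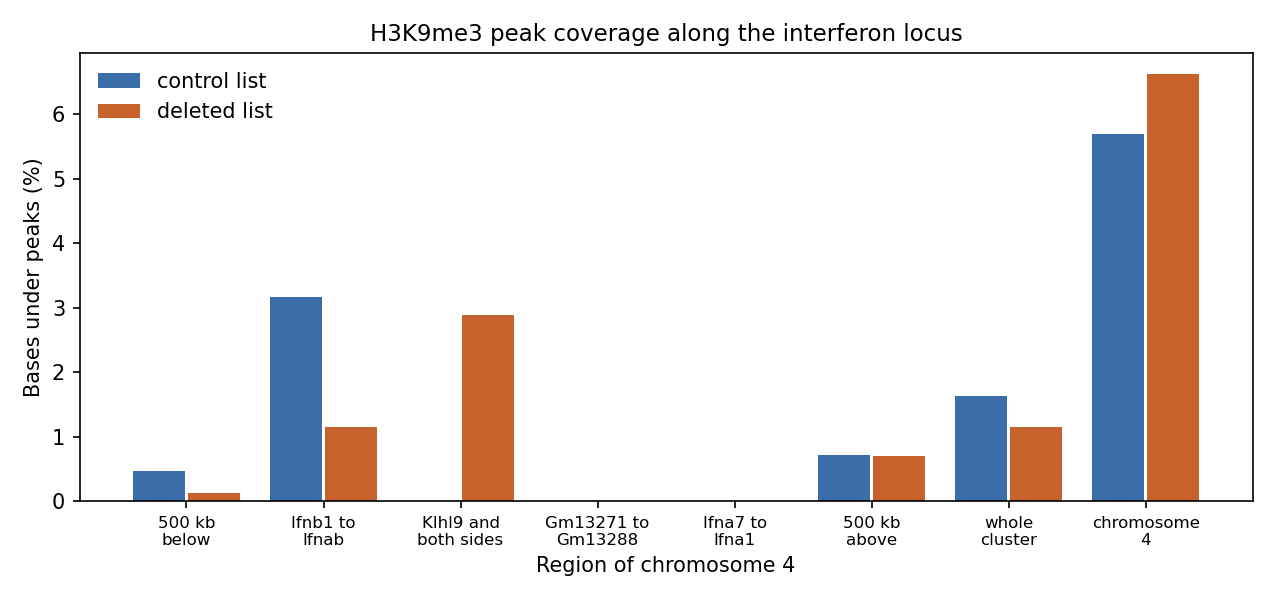
Percent of bases under H3K9me3 peaks in the control and deleted lists (bars, 1 library each) for the 500 kb flanks, 4 stretches of the interferon cluster, the whole cluster and chromosome 4. The stretch from Ifnb1 to Ifnab is covered more in the control list, the stretch around Klhl9 has peaks in the deleted list alone, and the 2 upper stretches have no peak in either.

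Among the neighbours, Ifne, which encodes interferon epsilon, had a deleted-list peak 677 bp away that covered 4.85% of its window against 0% in the control list. Mtap, a methionine salvage gene, was covered at 2.75% and 1.07%, and Focad at 0% and 0.126%. Hacd4 and the cell cycle inhibitor genes Cdkn2a and Cdkn2b had no window peak in either list. The distances from Cdkn2a were 33.98 and 89.2 kb. In all, 1 of the 7 protein-coding genes in the flanks had a control peak in its window and 3 had a deleted-list peak. Of all protein-coding genes, 29.0% and 30.1% had such a peak, and so few genes cannot be told apart from these shares.

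Genes of the rest of the pathway lie outside the cluster and its flanks, and their counts stand beside the 29.0% (control) and 30.1% (deleted) of all protein-coding genes with a window peak. Of the type II and III interferons, Ifng and Ifnl2 had no window peak and Ifnl3, an interferon lambda gene on chromosome 7, stood at 0% and 10.2%. Among receptor and signalling genes, Usp18, a negative regulator of the receptor, was covered at 2.15% and 3.53%. Ifnar1, Ifnar2, Jak1, Tyk2, Stat2 and Irf9 had no window peak. Of 12 factors that induce interferon genes, 1 had a control peak and 1 a deleted-list peak. These were Irf8, covered at 2.01% and 0%, and Tbk1, the kinase that activates Irf3, at 0% and 0.532%.

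Of 12 genes of nucleic acid sensing, Zbp1, a sensor of Z-form nucleic acid, was covered at 2.43% and 1.51%, and Tlr3, a receptor for double-stranded RNA, at 0% and 1.87%, while the other 10 had no window peak. Among 13 protein-coding interferon targets, 3 had a control peak and 2 a deleted-list peak. Ifi44 was covered at 13.1% and 5.67%, a difference of -7.45 points. Oas3, an enzyme that makes the activator of RNase L, stood at 3.17% and 0%, Oas1a at 0% and 6.28%, and Ifit1 at 1.72% and 0%. Mx1 and Mx2, of the same list, are pseudogenes in the RefSeq table and were covered at 0% and 1.16% and at 4.89% and 1.45%. No gene of these 4 lists differed by 10 points, and Ifnl3 did by 10.2.

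Over the 2 lists, the genes elsewhere whose window coverage was closest to the members' means of 0.599% and 2.44% were Ints10, Rev1, Zfp654, Tecta and Sh3rf1. Their summed differences from those means were 0.129 points for Ints10, 0.130 for Rev1, 0.134 for Zfp654, 0.143 for Tecta and 0.171 for Sh3rf1. The members' means rest on Ifna12 and Ifna1 alone, so this likeness is between averages and not between patterns along genes.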

How the data were processed

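The authors deposited 2 lists of broad peaks. Per the submitters' processing notes, the build was mm10 and the tools were MACS2, ChIPseeker 1.30.3 and BWA 0.7.17-r1188. Settings, use of the input libraries and pooling are not given in the sources used here, and the 2 input libraries were not analysed here. Per peak, the authors deposited a fold enrichment (a linear ratio), a −log10 p, a −log10 q and a score, which was not used. These rank or filter peaks only within their list. The lists were assigned by condition, since their replicate number differs from the labels. The genotype labels number the Cre from 2 to 5 across the 4 libraries.

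Peaks on scaffolds (155 control, 185 deleted) were set aside. Gene positions came from RefSeq (GRCm38.p6, with the same chromosomes as mm10). A peak met a window by at least 1 bp. Coverage and distances were computed in Python 3.11.15 (pandas 2.3.3, numpy 2.4.6), tested on simulated data. Promoters were aligned with Biopython 1.88, and figures drawn with matplotlib 3.10.9. Named genes were all members, all genes inside the cluster, flanking genes with a peak or among the 6 nearest, and in each pathway list those with the largest differences or coverage. The 5 most alike genes were also taken. Genes without a peak were named beyond this rule. The members and lists were chosen with earlier results of these data known. An item of the pathway lists is not reported here.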

Additional observations from a re-analysis of the deposited data

How the results depend on the processing

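Alternatives covered the peak threshold, joining of peaks, list size, gene window, overlap rule, flanks and cluster boundary. For 37 results there were 231 alternative values, of which 143 were counted as unmoved. That class was broad. It took in a control median distance of 83.8 kb against 55.9 kb, and 3 members with a deleted-list window peak against 2. For the results over all members or the cluster, 20 values were counted as unmoved, 25 as moved and 6 as reversed. The other 123 unmoved values belong to single members, and many are coverage differences of 0 at both settings. Stricter thresholds leave fewer peaks, and the cause of the other changes was not tested. No paired analysis was possible because there was 1 library per condition, and leaving out a replicate was not possible either. Depth is unknown, which limits every comparison.

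The number of members with a window peak, 1 in the control and 2 in the deleted list, was 0 and 0 for the gene body alone, with peaks of median fold or higher, and with a −log10 q from 2 or from 3 up. It was 1 and 1 with 1 kb, and 2 and 3 with 10 kb. The cluster's difference of -0.48 points was 0.28 at a −log10 q of 2 or more, 0 at 3 or more, -0.58 at or above the median fold and 0.22 over all named interferon genes. The value of 0.28 rests on 1 deleted-list peak near Ifna16, just over the limit at 2.01. Its overlapping control peak fell just under the limit at 1.90, so this change of sign does not show a difference in the mark.

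The cluster exceeded its flanks by 1.04 points (control) and 0.74 points (deleted). At a −log10 q of 2 or more these became -0.16 and 0.24, which depend on the same pair of peaks at the edge of the limit. From a −log10 q of 3 up they were -0.041 and 0, and with peaks of median fold or higher 0.45 and 0.13. They were 1.24 and 0.49 with flanks of 250 kb, -0.70 and -0.89 with flanks of 1 Mb, and 0.81 and 0.65 without the bases of protein-coding genes. With peaks joined within 5 kb the deleted list gave 0.62. Median distances of 55.9 and 16.8 kb were 768.3 and 781.7 kb at a −log10 q of 3 or more. In the deleted list the median was 150.7 kb at 2 or more and 56.6 kb at or above the median fold.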
